A study of Mus musculus with 4 samples.

Results

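The genes described here are 10 markers of the contractile apparatus of smooth muscle and myofibroblasts: Tagln, Tagln2, Cnn1, Cnn2, Acta2, Actg2, Myh11, Mylk, Smtn and Lmod1. They were selected on measured values of the contrast between LSD1 inhibitor and vehicle, the fall of Tagln and Actg2 beside the steadier Acta2, Mylk and Smtn, and then taken by symbol, using every probe set that the platform annotation assigns to exactly 1 of them. This gave 17 probe sets, among 34945 with a single symbol for 18193 genes, and the probe set with the highest mean signal over the 4 arrays stood for each gene. Differences of the members between inhibitor and vehicle are therefore given as a description, without a test.

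The arrays come from C2C12 cells, a mouse myoblast line whose cells fuse into myotubes when serum is lowered. Cells grown with 10% fetal bovine serum were changed to 2% horse serum, with 25 mM glucose throughout, and total RNA was collected at 48 h. Inhibitors of the histone demethylase LSD1 (Kdm1a), tranylcypromine (TC, 1 array) and S2101 (1 array), stand against vehicle (2 arrays), and neither the doses nor the vehicle are named. All arrays are of 1 cell line, and the labels do not say whether cultures were separate, so a p-value here covers the spread among these arrays alone, which may be technical. Values are MAS5 signal intensities, scaled by the authors to the same 2% trimmed mean on each array. With 4 arrays, their number sets the precision.

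Smooth muscle cells and myofibroblasts pull on actin filaments with a non-striated apparatus. Smooth muscle actins form the thin filament, calponins and transgelins bind it, and myosin works on it once myosin light chain kinase has phosphorylated the light chain. Many of these genes carry CArG boxes, sites bound by serum response factor (SRF) together with myocardin or the actin-sensing myocardin-related factors. Embryonic and cultured myoblasts also make several of these proteins, so in C2C12 cells they are not evidence of smooth muscle cells.

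Promoters of 7 members were found in the RefSeq table (GRCm38.p6): Acta2, Cnn1, Cnn2, Lmod1, Mylk, Smtn and Tagln2. Those of Tagln, Actg2 and Myh11 were not matched. The windows searched were the 250 bases before the start that this table gives. In 4 of the 7 that start is where the annotated gene begins. In the other 3 it lies inside the gene, so that 32 bases of the Cnn1 window, 212 of the Acta2 window and all of the Mylk window are within it. The windows of Cnn2 and Tagln2, members of the calponin family, are shown because they end at the annotated gene start and hold different motifs. The first is chr10:79988350-79988599 and the second chr1:172499996-172500245, both on the plus strand and written 5′ to 3′, with matches in capitals.
Cnn2: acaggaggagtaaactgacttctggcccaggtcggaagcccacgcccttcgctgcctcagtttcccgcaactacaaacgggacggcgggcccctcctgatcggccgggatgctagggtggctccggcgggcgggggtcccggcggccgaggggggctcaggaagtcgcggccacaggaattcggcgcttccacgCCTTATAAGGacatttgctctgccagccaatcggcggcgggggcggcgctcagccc
Tagln2: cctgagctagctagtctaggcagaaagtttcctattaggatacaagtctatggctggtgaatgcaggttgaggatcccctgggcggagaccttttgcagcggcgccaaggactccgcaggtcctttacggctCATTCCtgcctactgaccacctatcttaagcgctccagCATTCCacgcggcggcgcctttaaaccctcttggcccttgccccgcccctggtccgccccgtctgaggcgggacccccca
The capitals in Cnn2 are a full CArG box from 56 to 47 bases before the start. In Tagln2 they are CATTCC, the reverse complement of GGAATG, the core bound by TEAD factors, from 118 to 113 and from 80 to 75 bases before the start. In the Acta2 window CArG boxes with 1 mismatch, CCCTATATGG and CCTTGTTTGG, lay from 84 to 75 and from 34 to 25 bases before the start in the table, and GGAATG from 146 to 141. A full CArG box stood in 1 of the 7 member windows and in 1.47% of all 32851 windows. A CArG box with at most 1 mismatch stood in 3 of 7 and in 18.6% of all windows, and GGAATG or its reverse complement CATTCC in 5 of 7 and in 12.6%. The CArG pattern is its own reverse complement, no CArG match overlapped a GGAATG match in these 3 windows, and a match is a string of letters rather than a measured binding site.

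Tagln and Actg2 were much lower on both inhibitor arrays, Cnn2 and Acta2 slightly lower, and Tagln2, Smtn and Mylk overlapped the vehicle arrays in their brightest probe sets. Of the 10 members, 7 had a mean signal at or above that of the median gene (178.8), the level from which genes were tested. The other 3, Cnn1, Myh11 and Lmod1, were under it. In 4 of the 7, both inhibitor arrays lay below both vehicle arrays, which also held for 23.4% of the 9097 genes tested. A difference of -1 or below was seen in 1 of the 7 and in 0.22% of all genes tested. The median difference of the 7 was -0.23, beside 0.01 for all genes tested. All differences are on the scale of log2(signal + 50), which understates the change of dim genes. In RNA from a whole culture, fewer cells of a type and less RNA per cell cannot be told apart.

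**Figure D1:**
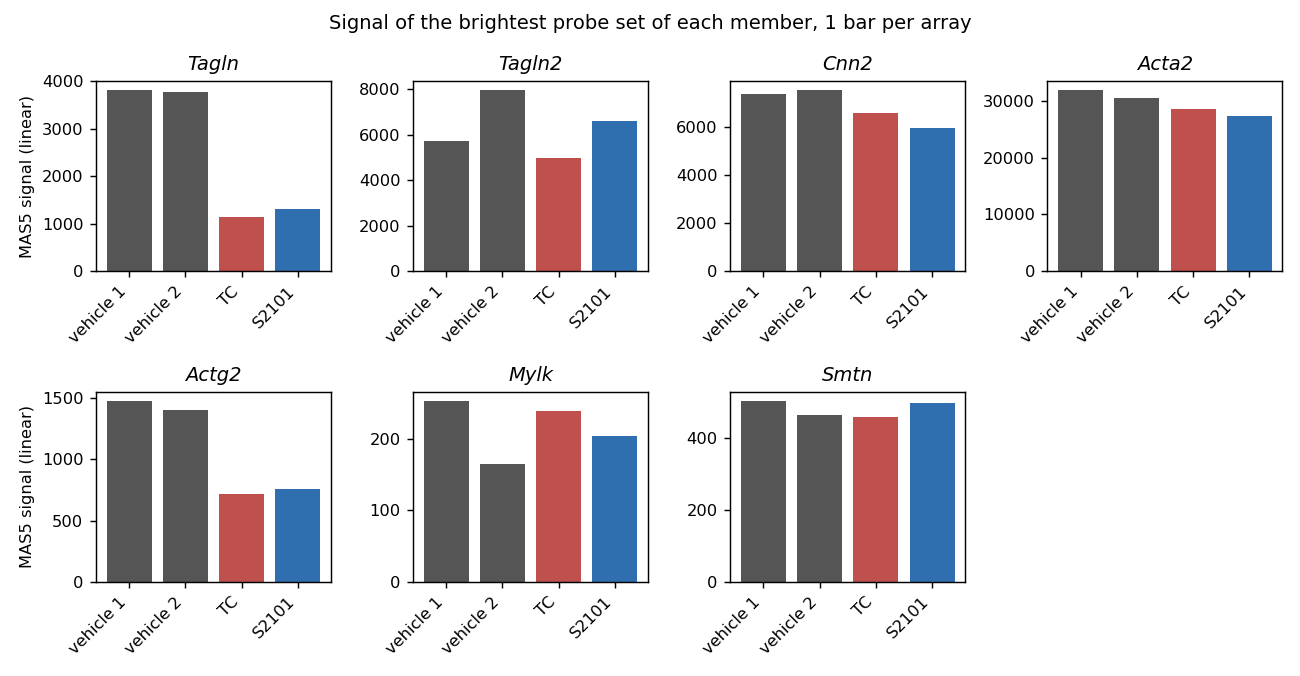
MAS5 signal (linear, each panel with its own axis from 0) of the 7 members at or above the median gene, 1 bar per array. Tagln and Actg2 are lower with TC and S2101 than on both vehicle arrays, while for Mylk and Smtn the bars of the conditions overlap.

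Among the calponin family, Tagln was far lower with either inhibitor and its closest relative Tagln2 was not. Tagln encodes transgelin (SM22 alpha), an actin-bundling protein and an early marker of smooth muscle differentiation. Its only probe set (1423505_at) had signals of 3812 and 3766 on the vehicle arrays, 1139 with TC and 1297 with S2101. The vehicle arrays were nearly equal (0.02 apart) and the inhibitor arrays sat far below them, at 30.1% and 34.2% of the vehicle mean signal. The difference from vehicle was -1.69 for TC and -1.51 for S2101, and -1.60 for their mean, the 6th lowest of the 9097 genes tested. Across the alternatives run the mean difference ranged from -1.69 to -1.46.

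Tagln2 encodes transgelin-2, the form found in many cells that are not smooth muscle. Its brightest probe set (1439407_x_at) read 5742 and 7969 on the vehicle arrays, 4991 with TC and 6624 with S2101. Here vehicle 1 and vehicle 2 were 0.47 apart, and the S2101 array fell between them. The difference of the means was -0.23, which became 0.00 without vehicle 2 and -0.47 without vehicle 1. The second probe set (1426529_a_at) was tighter, at 4679 and 4578 on the vehicle arrays against 3612 and 3994, a difference of -0.28 with no overlap. The suffix x marks a probe set in which some probes can match other sequences. The third (1420245_x_at) was dim, between 2.92 and 34.2.

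Cnn2 encodes calponin 2, an actin-binding calponin with a broader distribution than calponin 1. Its signals were 7364 and 7522 on the vehicle arrays, 6586 with TC and 5957 with S2101. The groups did not overlap, but the shift was small, -0.25, with the inhibitor arrays at 88.5% and 80.0% of the vehicle mean. Cnn1 encodes calponin 1, the calponin of differentiated smooth muscle, and was dim on every array, at 58.2 and 8.97 with vehicle, 3.30 with TC and 2.16 with S2101. The vehicle arrays differed from each other more than vehicle 2 did from either inhibitor array, so no fold is given for Cnn1.

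The actin genes split as well. Actg2 encodes the gamma smooth muscle actin of gut and bladder. Its only probe set (1422340_a_at) read 1480 and 1403 on the vehicle arrays, 716 with TC and 756 with S2101. Both inhibitor arrays were at 49.7% and 52.4% of the vehicle mean signal and lay close to each other. The difference was -0.92, the 32nd lowest of all genes tested, and ranged from -0.96 to -0.78 across the alternatives.

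Acta2 encodes alpha smooth muscle actin, the usual stain for myofibroblasts. Its brightest probe set (1416454_s_at) read 31972 and 30622 on the vehicle arrays, 28644 with TC and 27330 with S2101, a difference of -0.16. The suffix s marks probes shared by more than 1 transcript, so a contribution from the closely related striated actins to this signal was not tested. Acta1, the skeletal actin, read 27073 and 25836 with vehicle, 28911 with TC and 26029 with S2101. A second Acta2 probe set without that suffix (1444105_at) read 473 and 491 with vehicle, 362 with TC and 360 with S2101. In that probe set both inhibitor arrays were at about 75% of vehicle (75.1% and 74.6%), a difference of -0.37, more than that of the brightest one. The third (1456658_at) was dim and went the same way, from 116 and 79.0 to 62.9 and 70.9. All 3 Acta2 probe sets were lower on both inhibitor arrays, and each moved less than Actg2.

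Of the myosin arm, Mylk did not move beyond the gap between the vehicle arrays, and Myh11 was too dim to read. Mylk encodes smooth muscle myosin light chain kinase and, from the same gene, a long non-muscle form and telokin. Its brightest probe set (1425506_at) read 254 and 165 on the vehicle arrays, 240 with TC and 205 with S2101. Both inhibitor arrays lay between the vehicle arrays, and the difference of 0.09 became 0.34 without vehicle 1 and -0.16 without vehicle 2. This probe set stood just above the level for testing. The dimmer 1425505_at overlapped too (89.7 and 126 with vehicle, 96.2 and 90.4 with the inhibitors). In the dimmest, 1425504_at, signals were 56.7 and 34.2 with vehicle, 16.6 with TC and 7.72 with S2101, so the probe sets of this gene disagreed.

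Myh11, the smooth muscle myosin heavy chain and the strictest marker of the lineage, was dim. Its 1418122_at probe set read 15.0 and 7.40 with vehicle, 35.7 with TC and 25.5 with S2101. In 1448962_at the vehicle arrays read 3.21 and 1.53, the TC array 2.42 and the S2101 array 33.8, so the probe sets disagreed for TC. All of these levels are under the offset of 50, and no fold is given.

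Smtn encodes smoothelin, found in contractile smooth muscle. Its probe set (1452469_a_at) read 502 and 464 with vehicle, 457 with TC and 495 with S2101. The conditions overlapped, and the difference was -0.02. Lmod1, a leiomodin that nucleates actin filaments in smooth muscle, was dim, at 6.75 and 5.77 with vehicle, 37.0 with TC and 11.6 with S2101.

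**Figure D2:**
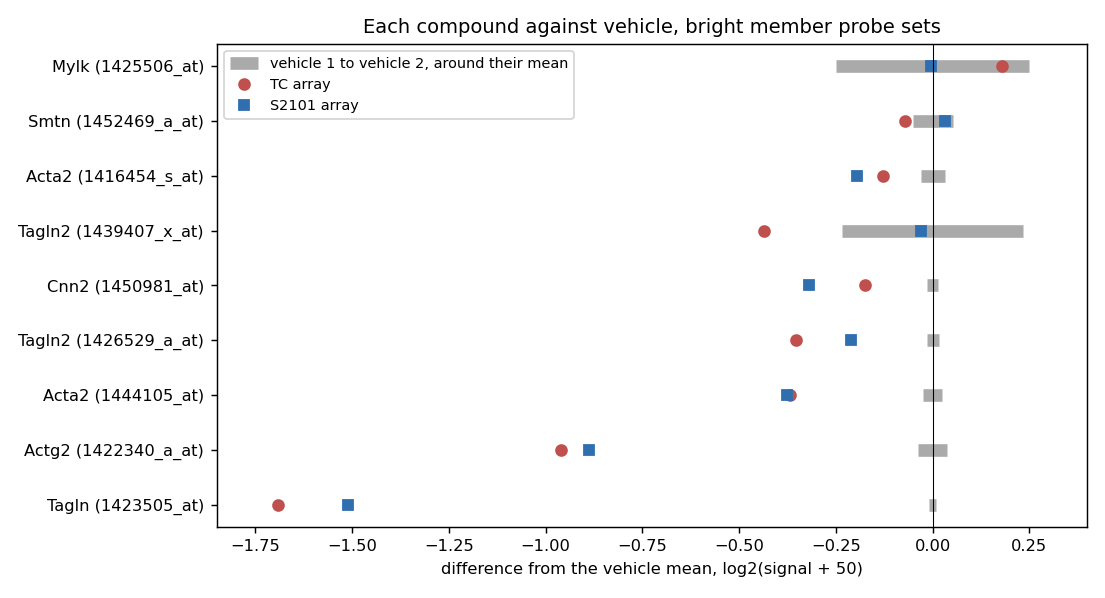
Difference of the TC array (circles) and the S2101 array (squares) from the vehicle mean, on the scale of log2(signal + 50), for the member probe sets with a mean signal at or above the median gene. Grey bars span the vehicle arrays around their mean. Tagln lies at -1.69 and -1.51 and Actg2 at -0.96 and -0.89, while Mylk lies within its grey bar.

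The contrast between the compounds was not used to choose the members, and it was tested. For the 7 members at or above the median gene the TC and S2101 arrays were compared in a fit of all 9097 genes with limma, which takes the spread of each lone array from the vehicle pair and the other genes. Doses are not stated, so the compounds are not known to have been used at matched doses. None of the 7 passed after Benjamini-Hochberg adjustment (limma), and 1, Tagln2, had an unadjusted p under 0.05, where 3 of all genes tested (0.033%) passed and 792 (8.71%) had an unadjusted p under 0.05. For Tagln the difference TC minus S2101 was -0.18 ± 0.10 (SE; 95% interval -0.40 to 0.04; adjusted p = 0.634, limma). For Actg2 it was -0.07 ± 0.12 (interval -0.35 to 0.21; adjusted p = 0.893). For Tagln2 the brightest probe set gave -0.40 ± 0.17 (interval -0.79 to -0.015; adjusted p = 0.547), and the second probe set -0.14. Cnn2 stood at 0.14 ± 0.08, Acta2 at 0.07 ± 0.08, Mylk at 0.18 ± 0.27 and Smtn at -0.10 ± 0.17, with adjusted p from 0.651 to 0.887 (limma). These p-values do not show that the compounds act alike: the interval of Mylk runs from -0.42 to 0.79.

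**Figure D3:**
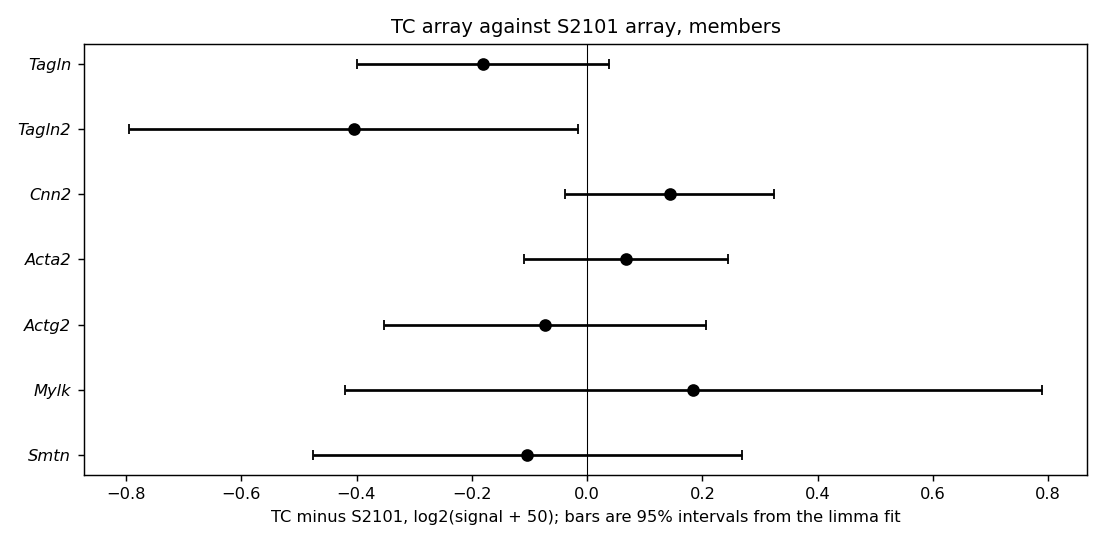
TC minus S2101 on the scale of log2(signal + 50) for the 7 members at or above the median gene, with 95% intervals from the limma fit with 3 groups. The interval of Tagln2 (-0.79 to -0.015) is the only 1 that leaves out 0, before adjustment for the number of genes tested.

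Most other genes of the contractile and cytoskeletal programme did not pass, and the majority of those that did were lower. Of 28 tested genes outside the members, 7 fell, 1 rose and 20 did not pass, beside 3.74% lower, 4.28% higher and 8.01% in either direction of all genes tested (limma, adjusted p under 0.05). Both inhibitor arrays lay below both vehicle arrays in 17 of the 28 and above them in 1, beside 23.4% and 27.6% of all genes tested. The median was -0.09. The lists of genes outside the members were drawn up with earlier results of these data known, so their counts are a description. Csrp2, the smooth muscle LIM protein, fell from 3592 and 3819 to 1835 with TC and 1778 with S2101, a difference of -1.02 ± 0.08 (SE; adjusted p = 6.98e-05, limma). Fhl2, a LIM cofactor of SRF, read 2290 and 2163 with vehicle and 1484 and 1411 with the inhibitors, and fell by 0.60 (SE 0.08; adjusted p = 0.00189, limma). The actin-bundling scaffold gene Palld fell by 0.53 (SE 0.08; 0.00289), and its other bright probe set stood at -0.45. Csrp2 and Fhl2 passed under every alternative run, while Palld no longer passed when its probe sets were averaged (-0.36; adjusted p = 0.0808, the highest of its alternatives, limma).

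Also lower were the LIM protein genes Csrp1 (-0.37) and Fhl1 (-0.32), the filamin gene Flna (-0.34) and the tropomyosin gene Tpm4 (-0.33). These names were chosen after their values were seen. Without vehicle 1 and without vehicle 2 in turn, the calls of Flna (adjusted p = 0.0878 and 0.0785) and Fhl1 (0.0627 and 0.0991) ended, and that of Fhl1 also without the TC array (0.0765, limma). The call of Tpm4 ended without vehicle 2 (adjusted p = 0.231) and without the S2101 array (0.132, limma). Over all alternatives the adjusted p ran from 0.00189 to 0.0878 for Flna, from 2.94e-04 to 0.145 for Fhl1 and from 9.62e-04 to 0.231 for Tpm4. The count of calls in this list was 5 without vehicle 1 and 5 without vehicle 2. Synpo2, an actin-binding Z-disc protein, alone rose (0.38 ± 0.08; adjusted p = 0.0217, limma). Its other bright probe sets stood at -0.17 and 0.18, and its call ended without vehicle 1 (adjusted p = 0.186; 0.00211 to 0.886 over the alternatives, limma). Among the 20 that did not pass were the calponin gene Cnn3 (-0.05), caldesmon, Cald1 (-0.05), vinculin, Vcl (-0.07), the smooth muscle light chain gene Myl9 (-0.21) and the tropomyosin genes Tpm1 (-0.02) and Tpm2 (-0.06), named after their values were seen. The brightest probe set of Cnn3 read 31770 and 30736 with vehicle, 31222 with TC and 29343 with S2101, with overlapping conditions. Every other bright probe set of Cnn3 had a lower mean with the inhibitors, by more than the brightest one. With averaged probe sets Cnn3 stood at -0.21 and did not pass (adjusted p = 0.314, limma). Averaged in the same way, Vcl stood at -0.12, Tpm2 at -0.105, Tpm1 at -0.09 and Cald1 at -0.03, and none of them passed (limma). Of the 20, Actn1, also named after its value was seen, came closest to passing (-0.24, adjusted p = 0.0508, limma), without overlap. Its other bright probe set stood at 0.34, and its difference ran from -0.27 to 0.00 across the alternatives.

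No other actin passed. The skeletal actin Acta1 stood at 0.05 ± 0.07, the cardiac actin Actc1 at -0.23 ± 0.06, and the cytoplasmic actins Actb at -0.05 ± 0.07 and Actg1 at -0.13 ± 0.07 (adjusted p = 0.716, 0.0579, 0.709 and 0.273, limma). Of these 4, 1 (Actc1) had an unadjusted p under 0.05. Actc1 read 16838 and 17040 on the vehicle arrays, 14959 with TC and 13948 with S2101, without overlap. It passed with quantile normalization (-0.21; adjusted p = 0.0309) and without the TC array (-0.28; adjusted p = 0.0366), with a range of 0.00789 to 0.271 over the alternatives (limma).

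**Figure D4:**
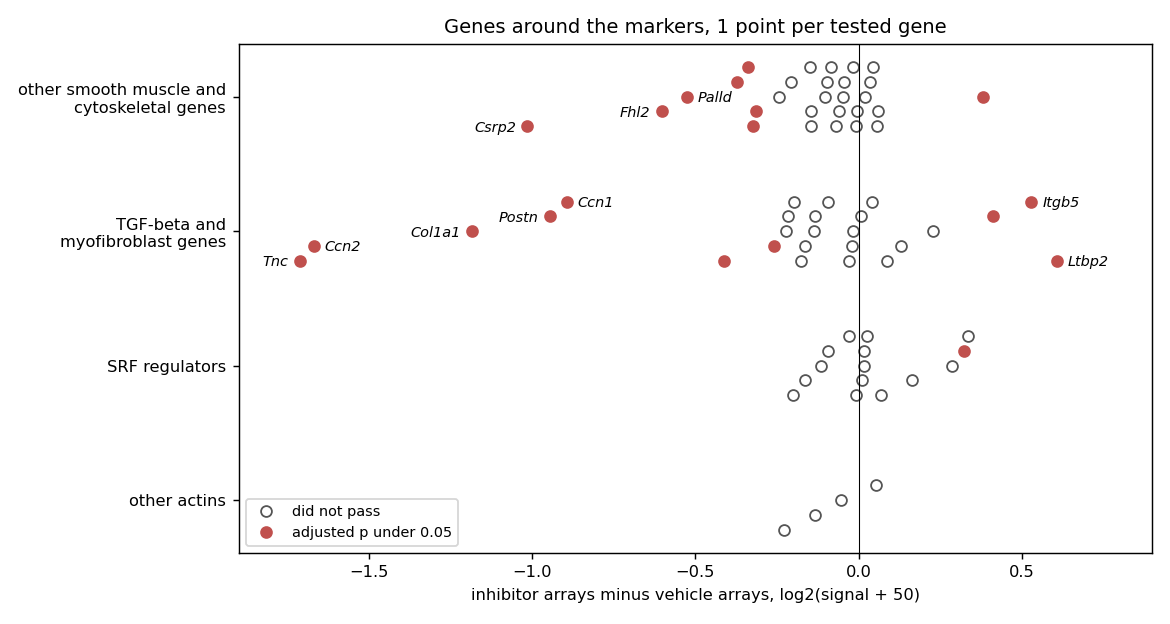
Difference between inhibitor and vehicle arrays, on the scale of log2(signal + 50), for tested genes outside the members, 1 point per gene in each of 4 lists. Filled points passed (limma, adjusted p under 0.05). Csrp2 at -1.02 leads the cytoskeletal genes, and the SRF regulators lie between -0.20 and 0.34.

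Among 15 tested SRF cofactors and related regulators, 0 fell, 1 rose and 14 did not pass (limma), a share near the 8.01% called of all genes tested, with 3 at an unadjusted p under 0.05 and a median of 0.02. Srf itself read 953 and 823 with vehicle, 699 with TC and 835 with S2101 (-0.20 ± 0.12; adjusted p = 0.356, limma). The conditions overlapped, and the other bright probe set of Srf stood at 0.07. Of the myocardin-related factors, which carry the actin signal to SRF, Mrtfa stood at -0.09 ± 0.13 (adjusted p = 0.737) and Mrtfb at 0.34 ± 0.13 (adjusted p = 0.142). Mrtfb read 1387 and 1307 with vehicle, 1472 with TC and 1990 with S2101, and it passed without the TC array (0.55; adjusted p = 0.00996; up to 0.877 over the alternatives, limma). With averaged probe sets it stood at -0.07. Myocd, the smooth muscle coactivator myocardin, was dim, at 1.93 and 26.9 with vehicle, 18.7 with TC and 17.8 with S2101.

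Klf4, a factor known to repress smooth muscle genes, rose from 8025 and 7603 to 9542 with TC and 10015 with S2101 (0.32 ± 0.07; adjusted p = 0.0161, limma), and its call ended without vehicle 2 (0.28; adjusted p = 0.139; 8.82e-04 to 0.139 over the alternatives). With that array left out 0 regulators passed, and without the TC array 2 did (limma; 4 and 4 at an unadjusted p under 0.05). Klf5, its relative, stood at 0.29 ± 0.09 (adjusted p = 0.0870, limma). Transcript levels do not measure the activity of these factors. Kdm1a, the gene of the inhibited enzyme, read 5537 and 5202 with vehicle, 4990.2 with TC and 4862 with S2101, and did not pass (adjusted p = 0.343, limma).

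Genes of TGF-beta signalling and of the myofibroblast matrix, many of them responsive to TGF-beta, included larger shifts in both directions. Of 26 tested, 7 fell, 3 rose and 16 did not pass, beside 3.74% lower and 4.28% higher of all genes tested (limma), with a median of -0.14. This list too was drawn up with earlier results known, so a count above those shares is no independent support. Tnc (-1.71 ± 0.09), Ccn2 (-1.67 ± 0.13), Col1a1 (-1.19 ± 0.10) and Postn (-0.95 ± 0.10) were furthest from vehicle (adjusted p = 6.28e-06, 6.98e-05, 1.33e-04 and 5.38e-04, limma). These matrix and matricellular genes passed under every alternative run. The other bright probe set of Col1a1 stood at -0.57. With averaged probe sets Col1a1 stood at -0.88 and Tnc at -1.30. The 3 that rose, named after their values were seen, were the latent TGF-beta binding protein gene Ltbp2 (0.61 ± 0.09; adjusted p = 0.00348), the integrin Itgb5 (0.53 ± 0.08; 0.00327) and the receptor Tgfbr1 (0.41 ± 0.10; 0.0287, limma). The call of Tgfbr1 ended without vehicle 1 (adjusted p = 0.0950) and without the S2101 array (0.0948), with a range of 0.00189 to 0.622 over the alternatives (limma). Fn1, the fibronectin gene, stood at 0.04 and Tgfbr2 at 0.23 (adjusted p = 0.762 and 0.0535, limma), both named after their values were seen.

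Markers of several cell types were read on the same arrays, all of 1 cell line. Of 10 skeletal muscle markers 9 were at or above the median gene and none passed between inhibitor and vehicle (limma; 1 had an unadjusted p under 0.05), with differences from -0.16 to 0.18. Their summed signal was 105300 to 107660 with vehicle, 112890 with TC and 102420 with S2101. Of 5 genes that define smooth muscle, Smtn alone reached that level, while Myh11, Myocd, Lmod1 and Cnn1 did not, so the strict markers of the lineage were at low signal here. Of 6 fibroblast markers 3 reached it, Dcn, Lum and Pdgfra. Of those under it, named after their values were seen, Dpt and Thy1 were lower on both inhibitor arrays and Pi16 overlapped. Dpt read 184 and 149 with vehicle, 69.1 with TC and 74.4 with S2101. Thy1 was dimmer, at 40.9 and 26.6 with vehicle, 7.06 with TC and 16.9 with S2101. Dcn fell (-0.23 ± 0.06; adjusted p = 0.0481, limma), a call that ended without vehicle 1 (0.231), vehicle 2 (0.234) or the TC array (0.112; 0.00765 to 0.234 over the alternatives). Lum stood at -0.39 (adjusted p = 0.117, limma). Pdgfra was higher on both inhibitor arrays, at 372 and 417 against 351 and 341 with vehicle, and did not pass (0.17; adjusted p = 0.495, limma). The summed fibroblast signal was 15830 to 15884 with vehicle, 13164 with TC and 13712 with S2101, most of it Dcn (14781 and 14754 with vehicle, 12307 and 12804 with the inhibitors). Of 6 pericyte markers 3 reached it. Of those under it, named after their values were seen, Rgs5 and Abcc9 overlapped and Kcnj8 was higher on both inhibitor arrays. Kcnj8 was dim, at 8.01 and 6.32 with vehicle, 27.8 with TC and 23.8 with S2101. Pdgfrb, which myoblasts and fibroblasts can also express, fell (-0.46 ± 0.08; adjusted p = 0.00472, limma). It passed with any 1 array left out, but not with no filter (0.0537) or without the intensity trend (0.0524; 1.42e-05 to 0.0537 over the alternatives, limma). Cspg4 (-0.10) and Notch3 (-0.08) overlapped between conditions and did not pass (adjusted p = 0.774 and 0.696, limma). The summed pericyte signal was 11059 to 11401 with vehicle, 8125 with TC and 9299.9 with S2101, most of it Pdgfrb (8904 and 8819 with vehicle, 6044 and 6858 with the inhibitors). Among the fibroblast and pericyte markers at or above the median gene, Dcn, Lum and Pdgfrb were lower on both inhibitor arrays than on both vehicle arrays. So were Tagln and Actg2, and 23.4% of all genes tested. Pdgfra was higher on both, and Cspg4 and Notch3 overlapped. The fibroblast and pericyte sums were also lower, but most of each is Dcn or Pdgfrb. In a single myoblast line these markers are not evidence of separate fibroblasts or pericytes. Any relation of their differences to those of Tagln and Actg2 was not tested. Of 5 endothelial markers 0, and of 5 leukocyte markers 1 (Cd14), reached the median gene. The ratio of 3′ to 5′ signal of the Gapdh control probes ranged from 0.743 to 0.790 over the 4 arrays, and that of the beta-actin control probes from 1.22 to 1.32.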

How the data were processed

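RNA of 4 samples was hybridised to Affymetrix mouse arrays from 250 ng of total RNA, per the labels' protocols. The deposited signal intensities are on a linear scale and came from MAS5 in Affymetrix Expression Console, per the submitters' processing notes. Their versions, settings and any scan batches were not stated, and no detection calls were used. The table held 45101 probe sets, of which 64 array controls, 932 with several symbols and 9160 with none listed were left out. The gene IDs of 34741 probe sets were found in the RefSeq gene table (GRCm38.p6), which was used for names and changed 0 symbols.

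Each gene was represented by its brightest probe set, and 9097 genes whose mean signal reached that of the median gene (178.8) were tested on log2(signal + 50). The test was limma 3.58.1 (R 4.3.3) with moderated variances following an intensity trend and Benjamini-Hochberg adjustment at 0.05. Inhibitor against vehicle took TC and S2101 as 2 arrays of 1 group (2 residual degrees of freedom). TC against S2101 came from a fit with 3 groups (1 residual degree of freedom). The fits were tested on simulated data. Motifs were searched in Python 3.11.15. Named genes were the 10 members, the 4 largest differences of each of the 3 longer lists of contractile, SRF regulator and TGF-beta genes, Srf, Mrtfa, Mrtfb, Myocd, the other actins, Kdm1a and the markers of other cell types at or above the median gene, and exceptions are stated where they appear. The members and lists were chosen with earlier results of these data known. Alternatives were offsets of 10 and 250, other filters, other probe set choices, quantile normalization, no trend, a replicate block and leaving out each array.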

Additional observations from a re-analysis of the deposited data

How the results depend on the processing

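The members' differences from vehicle chose them, so their direction under the alternatives supports nothing, and the filters, the trend and the replicate block cannot move a difference. Mylk and Smtn changed sign when single arrays were left out, and Tagln2 reached 0.00 without vehicle 2. For Acta2 the difference was -0.37 without the s and x probe sets and -0.29 with averaged probe sets. No member passed between TC and S2101 in any of the 60 tests run (limma, adjusted p from 0.295 to 0.996). Without a vehicle array that fit has no residual degrees of freedom, and without an inhibitor array the contrast does not exist.

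Of the 729 calls over all genes between inhibitor and vehicle, the count became 266 with no filter, 457 with the stricter filter, 468 with averaged probe sets and 423 without the trend, and 501 to 749 with 1 array left out. The share of lower calls moved by under 10 percentage points. For the other cytoskeletal genes the 8 calls became 4 with no filter, 4 with averaged probe sets and 3 without the trend, and 5 to 8 with 1 array left out. The 1 call among SRF regulators became 0 with no filter, averaged probe sets or no trend (limma; 3, 3 and 2 at an unadjusted p under 0.05), and 0 to 2 with 1 array left out. The other actins went from 0 calls to 1 with quantile normalization and 0 to 1 with 1 array left out. The TGF-beta and myofibroblast list went from 10 calls to 7 with no filter, 11 with averaged probe sets and 7 without the trend. Calls between TC and S2101 over all genes went from 3 to 24 with averaged probe sets, 28 with quantile normalization, and 0 with no filter (limma; 1069 at an unadjusted p under 0.05) or without the trend (691). The causes were not tested.

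The sample descriptions number the vehicle arrays and the inhibitor arrays 1 and 2, and deviations of same-numbered arrays correlated across genes at 0.065. Inhibitor number 1 is the TC array and number 2 the S2101 array, so their deviation also holds the difference between compounds. The correlation therefore cannot decide whether the numbers mark pairs, and they were not taken as pairs. With that number as a replicate block there were 1223 calls over all genes, 13 among TGF-beta and myofibroblast genes, 3 among SRF regulators and 1 among the other actins.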
